A study of Mus musculus with 4 samples.

Results

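The genes described here are 10 immediate early genes and members of the AP-1 family: Jun, Junb, Jund, Fos, Fosb, Fosl2, Egr1, Ier2, Atf3 and Myc. They were chosen with earlier results of these data known. They were taken by name from the RefSeq annotation of the mouse genome (build mm10), where all 10 were found among 21887 protein-coding genes. For each gene, every peak of SHP, the small heterodimer partner (gene Nr0b2), within 50 kb of either gene end was collected. A gene was counted as occupied where a peak summit lay within 5 kb of an end, and the text uses the word in that sense only.

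The peaks came from chromatin immunoprecipitation and sequencing (ChIP-seq) with an SHP antibody on jejunum and ileum of C57BL/6 mice, here the wild type, aged 8 to 12 weeks, fasted overnight for 12 h and given normal chow again for 4 h. SHP-knockout mice on the same background, which lack the antigen, were fasted and refed in the same way. The labels describe 3 sets of immunoprecipitated and input DNA, each pooled from 3 mice, but there was 1 peak list per genotype, with 5775 wild-type and 7 knockout peaks. All values below are therefore single values without a replicate error, no test was made, and an order between genes describes this list only. Read depth is not given in the sources used here, and whole intestine holds epithelial, immune, stromal and muscle cells whose contributions to a peak cannot be told apart.

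Immediate early genes are switched on within minutes of a growth factor, nutrient or stress signal, without new protein synthesis, mainly through MAP kinases acting on the serum response factor SRF and on CREB-type factors bound at their promoters. Several of them encode subunits of AP-1, a dimer of JUN proteins with FOS or ATF proteins that binds DNA through a basic leucine zipper. In the intestine, JUN and MYC are known for their part in the growth of crypt cells. SHP has no DNA-binding domain of its own and is known to act as a corepressor on other transcription factors, such as the nuclear receptor LRH-1.

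SHP peaks were found at 8 of the 10 genes. Occupied were all 3 JUN genes (Jun, Junb, Jund) and the 3 FOS genes among the 10 (Fos, Fosb, Fosl2). Fosl1, the remaining FOS gene, is not among the 10 and was not occupied. Egr1 and Myc also had a wild-type summit within 5 kb of an end, and Ier2 and Atf3 had none. In the same list 26.4% of all protein-coding genes (5778 of 21887) were occupied. Because the 10 genes were chosen with earlier results of these data known, the shares given here are not a neutral comparison. Within 1 kb of an end, 6 of the 10 genes had a summit, beside 20.7% of protein-coding genes. Within 50 kb, 9 of the 10 had one, beside 48.2%, and Atf3 was the exception. The 10 genes are short, with a median length of 3570 bp against 17200 bp for protein-coding genes. Among genes of 10 kb or less, 7 of 8 members were occupied, beside 1588 of 7926 protein-coding genes of that length. None of the 7 knockout summits lay within 50 kb of any of the 10 genes, while 0.105% of protein-coding genes had one that near. The knockout list was so short, and filtered so differently, that its lack of peaks here says nothing about these genes in particular.

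The 8 occupied genes held 12 peaks, and each of the 12 lay closer to that gene than to any other protein-coding gene. Their enrichment values, the authors' own signal value for each peak, ran from 4.55 to 8.73 with a median of 5.60, beside a median of 5.65 over the whole list. Above the list median were 6 of the 12. Their −log10 p, also as deposited, had a median of 16.7 beside 14.8, with 9 of 12 above. Their median width was 1400 bp beside 978 bp, with 7 of 12 above. By enrichment value the peaks of this group were thus spread about the middle of the list, and only the Jun peak and the narrower Jund peak stood near its top, with 98.9% and 92.1% of all peaks lower.

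**Figure D1:**
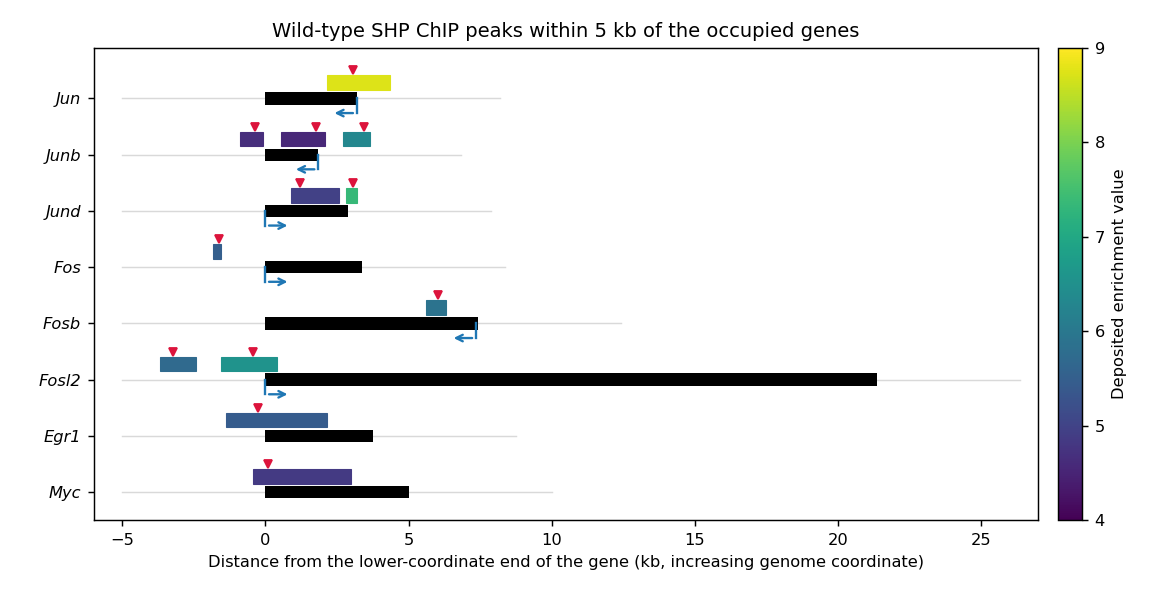
Peaks within 5 kb of the 8 occupied genes, drawn to scale. The horizontal axis is the distance from the lower-coordinate end of each gene in kb, black bars are genes, coloured bars are peaks with their deposited enrichment value, red triangles are summits, and blue arrows mark the annotated start and direction of the 6 genes for which a start was given. Junb has 3 peaks, Jund and Fosl2 have 2 each, and the Egr1 and Myc peaks are the widest, at 3545 and 3410 bp.

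Jun, which encodes the prototype AP-1 subunit, carried the strongest peak of the group. Its peak spanned chr4:95051185-95053397 (2213 bp) over the start of the gene (chr4:95049036-95052222, minus strand). The summit lay inside the gene, 127 bp downstream of the start. Its enrichment value of 8.73 ranked 64 among 5775 peaks, and its −log10 p of 28.4 ranked 93. Among the 5778 occupied genes, Jun ranked 79 by the highest value within 5 kb. No other protein-coding gene and no further peak lay within 50 kb, so the peak can be counted for Jun alone among protein-coding genes.

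Junb, whose product often opposes JUN in growth control, had 3 peaks spread over 4531 bp, from one side of the gene to the other. The gene is 1840 bp long (chr8:84976909-84978748, minus strand). The middle peak, chr8:84977456-84978985, covered the start, with its summit 63 bp downstream, an enrichment value of 4.55 and a −log10 p of 17.5. A second peak, chr8:84979613-84980566, had its summit 1612 bp upstream of the start and the highest value of the 3, 6.32 (−log10 p 17.2). The last, chr8:84976036-84976809, had its summit 370 bp beyond the other end of the gene, with a value of 4.65 and a −log10 p of 16.2. The enrichment value at the start itself was thus the lowest of the 3, and the ratio of highest to lowest was 1.39. By −log10 p the peak at the start was instead the highest of the 3. The middle and the last summit were also within 5 kb of Prdx2, a peroxiredoxin gene.

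Jund, a JUN gene known for steady rather than transient expression, had 2 peaks that differed in shape. The wider one, chr8:70698621-70700327 (1707 bp), had its summit inside the gene (chr8:70697739-70700616, plus strand), 1194 bp downstream of the annotated start. Its enrichment value was 4.97, lower than most of the list (rank 4236), while its −log10 p of 24.0 ranked 237. The other, chr8:70700567-70700935, was only 369 bp wide, with the summit 184 bp beyond the far end of the gene, an enrichment value of 7.36 (rank 457) and a −log10 p of 20.03. Thus the order of these neighbouring peaks depended on the measure. Neither peak reached the annotated start, which lay 882 bp from the nearer one. Both summits were also within 5 kb of Iqcn.

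Fosl2, which encodes the FOS protein FRA2, had 2 peaks at and before its start, and none elsewhere along the gene (chr5:32136472-32157840, plus strand, the longest of the 10 at 21369 bp). The peak over the start, chr5:32134923-32136880 (1958 bp), had its summit 430 bp upstream, an enrichment value of 6.56 and a −log10 p of 24.0 (rank 229). A further peak, chr5:32132803-32134066, had its summit 3241 bp upstream, with values of 5.71 and 14.5. The enrichment values of this pair differed by a ratio of 1.15.

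Fos, the prototype FOS gene, had a single small peak that did not reach its promoter. It spanned 290 bp, chr12:85472065-85472354, narrower than all but 2.51% of peaks in the list. The summit lay 1628 bp upstream of the start (gene chr12:85473890-85477274, plus strand), and the peak's nearer edge 1536 bp from it. The enrichment value of 5.49 and the −log10 p of 14.0 were both under the list medians. No other protein-coding gene lay within 50 kb.

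Fosb, a FOS gene with an additional truncated product, had its only peak within 5 kb inside the gene, downstream of the start. The peak spanned chr7:19308296-19308993 (gene chr7:19302696-19310118, minus strand), with the summit 1313 bp downstream of the start. Its enrichment value was 5.91 and its −log10 p 15.4, both slightly over the list medians. Fos and Fosb were therefore the occupied genes without a summit within 1 kb of an end.

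Egr1 and Myc had the widest peaks of the group, and among the widest of the list. Egr1 encodes a zinc-finger factor induced through serum response elements, and Myc a helix-loop-helix factor that drives growth and ribosome synthesis. The Egr1 peak, chr18:34859831-34863375, was 3545 bp wide (rank 17 of 5775) and ran from outside the gene (chr18:34861207-34864956) into it, with the summit 261 bp outside the lower-coordinate end. Its enrichment value was 5.44 and its −log10 p 15.4. The Myc peak, chr15:61984921-61988330, was 3410 bp wide (rank 19) and had its summit 94 bp inside the lower-coordinate end of the gene (chr15:61985341-61990361). Its enrichment value of 4.86 and its −log10 p of 12.2 were the lowest best values of the 8 occupied genes. Only 0.329% of wild-type peaks (19 of 5775) were as wide as the Myc peak or wider. Both wide peaks had enrichment values under the list median.

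Ier2, a small immediate early gene of little-known function, and Atf3, a stress-induced ATF factor that pairs with JUN proteins, were not occupied. The summit nearest to Ier2 (chr8:84661331-84662852) was 21895 bp away, at chr8:84639007-84639976. It lay 815 bp from an end of the calcium channel gene Cacna1a. Nothing was called within 50 kb of Atf3 (chr1:191170296-191183333), and its nearest summit was 190949 bp away. A gene without a listed peak may still have had signal under the filter, which the list cannot show.

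**Figure D2:**
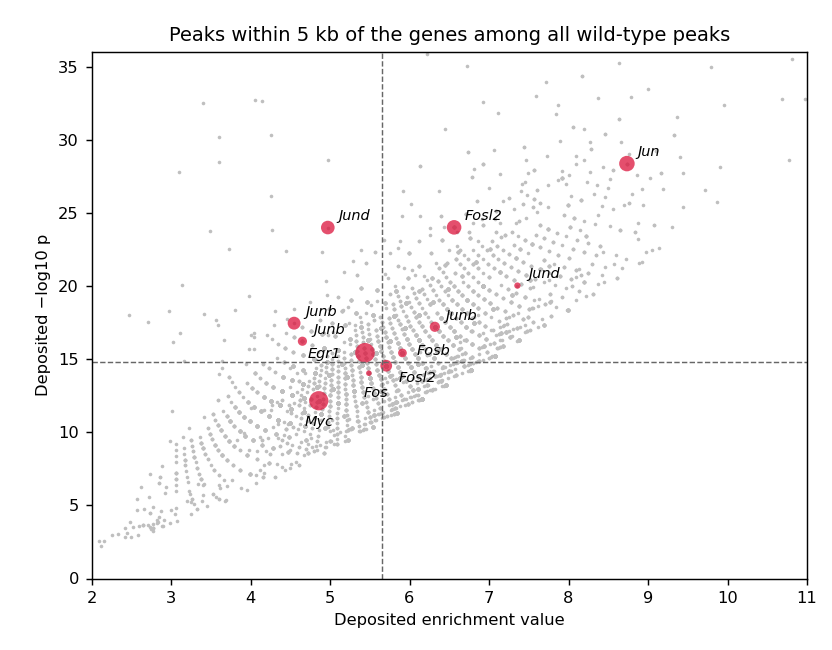
Deposited −log10 p against deposited enrichment value for wild-type peaks (grey) and for the 12 peaks within 5 kb of the occupied genes (red, with area in proportion to peak width). Dashed lines are the medians of the list, 5.65 and 14.8, and 33 peaks lie beyond the axes. Jun lies at the upper right, while the wider Jund peak and the Junb peak at the start lie high for their enrichment value.

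Ranked by the highest enrichment value within 5 kb, the order was Jun (8.73), Jund (7.36), Fosl2 (6.56), Junb (6.32), Fosb (5.91), Fos (5.49), Egr1 (5.44) and Myc (4.86). Their median was 6.11, beside 5.73 over all occupied protein-coding genes, and 5 of the 8 were above that value. Without replicate lists, it cannot be said which neighbours in this order differ. The order by −log10 p of those same peaks was Jun (28.4), Fosl2 (24.0), Jund (20.03), Junb (17.2), Egr1 (15.43), Fosb (15.42), Fos (14.0) and Myc (12.2). Jun was first and Myc last by both.

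More than 1 peak within 5 kb was seen at 3 of the 10 genes, Junb, Jund and Fosl2, beside 3.05% of all protein-coding genes. Of the occupied protein-coding genes, 11.5% had 2 or more summits. Junb alone had 3, and 0.302% of protein-coding genes (66 of 21887) had 3 or more. The gaps between neighbouring peaks were 239 bp at Jund, 627 bp at the closest pair of Junb and 856 bp at Fosl2. Whether such neighbours were divided from a broader region by the peak caller was not tested.

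The annotated start was given for 7 of the 10 genes in a RefSeq promoter table (GRCm38.p6, the coordinates of mm10). It lay inside a wild-type peak at 3 of them, Jun, Junb and Fosl2, beside 21.2% of the 17492 protein-coding genes in the table. Of the 6 occupied members with a start, 3 thus had it inside a peak, while 76.2% of 4663 occupied protein-coding genes had at least 1 there. The occupied genes Egr1 and Myc had no listed start and were not counted. Both of their peaks covered the lower-coordinate end of the gene, and whether that end is the start was not given. In both shares over all genes any listed start was counted, and some genes have more than 1. Each of the 7 members had 1 listed start, so the comparison is not a like one. The 250 bases before the start are shown for these 3 genes, for Fos, whose peak lay farther upstream, and for Atf3, which had no peak. Capitals mark exact matches on either strand to the motifs named after the sequences. All run 5′ to 3′ on the gene's own strand.
Jun, chr4:95052223-95052472, minus strand, start inside a peak: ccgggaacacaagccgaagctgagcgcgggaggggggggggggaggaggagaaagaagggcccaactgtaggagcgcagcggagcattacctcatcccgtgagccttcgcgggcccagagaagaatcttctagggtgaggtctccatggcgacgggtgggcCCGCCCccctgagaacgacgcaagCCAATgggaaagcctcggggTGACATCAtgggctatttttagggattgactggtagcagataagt
Junb, chr8:84978749-84978998, minus strand, start inside a peak: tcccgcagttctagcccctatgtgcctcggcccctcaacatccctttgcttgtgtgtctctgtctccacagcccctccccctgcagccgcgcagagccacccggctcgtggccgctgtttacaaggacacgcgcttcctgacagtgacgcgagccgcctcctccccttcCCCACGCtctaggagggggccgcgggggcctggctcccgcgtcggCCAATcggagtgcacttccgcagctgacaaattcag
Fosl2, chr5:32136222-32136471, plus strand, start inside a peak: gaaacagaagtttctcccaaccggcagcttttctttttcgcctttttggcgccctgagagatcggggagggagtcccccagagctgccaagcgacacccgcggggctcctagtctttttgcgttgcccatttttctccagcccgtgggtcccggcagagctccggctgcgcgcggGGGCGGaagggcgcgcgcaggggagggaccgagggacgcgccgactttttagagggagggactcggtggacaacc
Fos, chr12:85473640-85473889, plus strand, peak upstream only: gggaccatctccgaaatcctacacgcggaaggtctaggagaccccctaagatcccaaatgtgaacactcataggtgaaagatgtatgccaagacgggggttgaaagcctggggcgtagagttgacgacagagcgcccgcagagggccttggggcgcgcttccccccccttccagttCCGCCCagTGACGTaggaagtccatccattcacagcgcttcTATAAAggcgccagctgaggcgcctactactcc
Atf3, chr1:191183334-191183583, minus strand, no peak: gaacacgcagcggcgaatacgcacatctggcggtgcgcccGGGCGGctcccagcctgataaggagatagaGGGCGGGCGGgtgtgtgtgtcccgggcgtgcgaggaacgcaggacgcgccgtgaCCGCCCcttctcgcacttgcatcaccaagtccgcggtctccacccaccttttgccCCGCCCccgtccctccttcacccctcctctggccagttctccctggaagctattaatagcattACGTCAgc

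The motifs were searched on both strands in the whole promoter window, 250 bases before to 50 after the start, of the 7 members and of 21263 starts of protein-coding genes. A GC box (GGGCGG), bound by SP and KLF factors, was in 5 of the 7 windows (Jun, Fos, Fosb, Fosl2 and Atf3), beside 46.2% of all. Among the genes with the start inside a peak, Jun and Fosl2 held a GC box and Junb did not. Atf3, which had no SHP peak, held 5 matches before its start, some of them overlapping. Whether the GC box goes with SHP peaks was not tested. A CCAAT box (CCAAT), bound by NF-Y, was in Jun, Junb and Atf3, beside 38.2%. The core of the cyclic AMP response element (TGACGT), bound by CREB and ATF factors, was in Fos and Atf3, beside 8.49%, starting 66 and 8 bases before the start. A TATA box (TATAAA) was in Fos and, directly at the annotated start, in Junb, beside 12.6%. An EGR site (GCGTGGG) was in Junb, beside 6.35%. A variant AP-1 site (TGACATCA), through which JUN is known to act on its own gene, was in Jun alone of the 7, beside 3.66% of all, and was searched after the sequence had been seen.

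The canonical AP-1 site (TGANTCA, in 6.99% of all windows), the E-box (CACGTG, 7.84%), the CLEAR core (TCACGTG, which contains an E-box, 4.39%) and the ETS site (CCGGAAG, 11.6%) were in none of the 7 windows. The same held for the CArG box, the element bound by SRF (1.52%), and for the LRH-1 site (AAGGTCA, 4.08%). These matches describe letters in a short window and not binding. The window held no SHP summit of the genes searched, and the nearest, at Junb, was 63 bp downstream of the start. A motif missing from the window therefore says nothing about the DNA at the summits, nor about DNA farther upstream. The promoters of Egr1, Ier2 and Myc were not searched. GC content over the 250 bases before the start was 61.2% at Jun, 66.4% at Junb and 64.4% at Fosl2, with starts inside a peak. At the starts outside a peak it was 58.4% at Fos, 68.8% at Fosb, 65.2% at Atf3 and 47.6% at Jund. The median over all starts was 55.6%, and over starts inside a peak 65.6%. Whether base composition goes with SHP peaks was not tested.

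**Figure D3:**
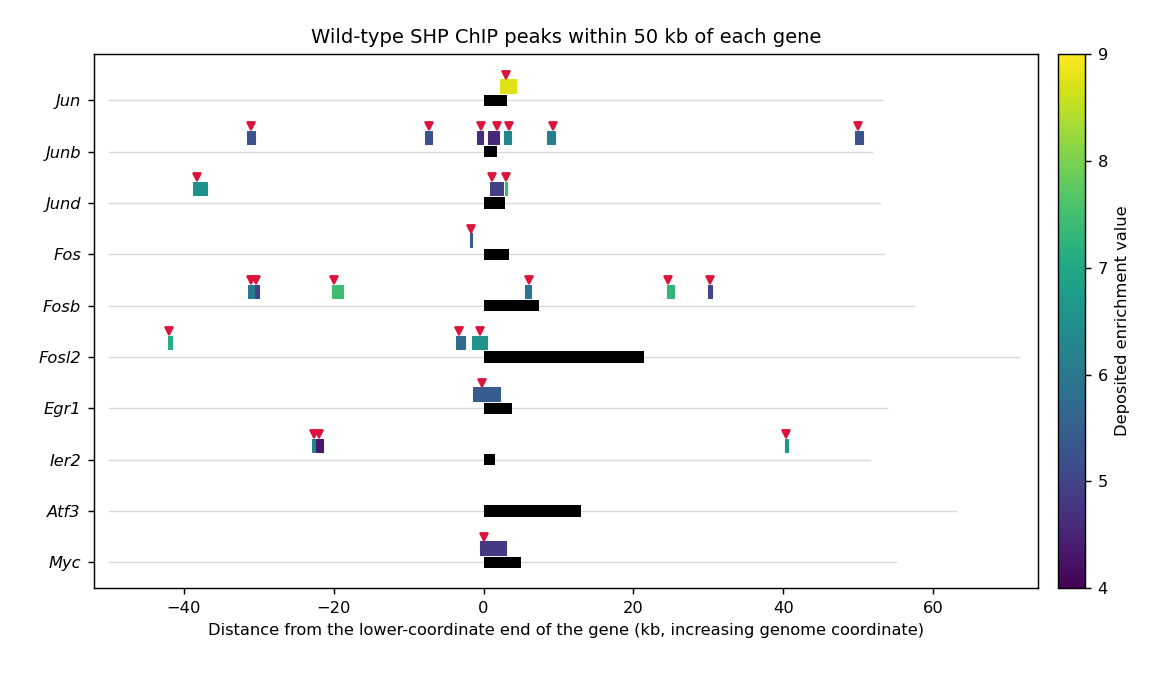
All wild-type peaks within 50 kb of an end of each gene, drawn to scale. The horizontal axis is the distance from the lower-coordinate end of the gene in kb, grey lines are the windows searched, black bars are genes, coloured bars are peaks with their deposited enrichment value, and red triangles are summits. Jun, Fos, Egr1 and Myc have 1 peak each in the whole window, Junb 7, Fosb 6, and Atf3 none.

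Seen over the 50 kb windows, the genes ranged from isolated to crowded loci, with several in between. Jun, Fos, Egr1 and Myc had no peak in the window other than their own. Jun, Fos, Fosl2 and Myc had no other protein-coding gene there, and Egr1 had 3 (Kdm3b, Reep2 and Etf1). Junb had 7 summits in a window with 8 other protein-coding genes, and Fosb 6 in a window with 7. Among protein-coding genes, 0.334% had 7 or more summits in such a window, and 0.809% had 6 or more. The median protein-coding gene had 0 summits in its window and the median occupied gene 2.

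The windows held 26 peaks in all, of which 14 lay 5 to 50 kb from the member. Each of these 14 was nearer to another protein-coding gene than to the member, and 11 were within 5 kb of one. Around Junb these were peaks at Prdx2 and Rnaseh2a (enrichment value 5.22), Hook2 (6.11), Mast1 and Rtbdn (5.30), and Get3 and Trir (5.32). Around Fosb they lay at Rtn2 and Ppm1n (7.45), and at Vasp (6.02), with a weaker peak beside it near Vasp and Ppm1n (4.99). Near Ier2, Cacna1a had 2 (6.26 and 4.33), and a peak near Lyl1, Nfix and Trmt1 had a value of 6.65. Pgpep1 had one of 6.52 in the Jund window.

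The other 3 of the 14 had no protein-coding gene end within 5 kb. A pair lay on the upstream side of Fosb, between it and Ercc1, a DNA repair gene. Of this pair, chr7:19327137-19328084 had its summit 17232 bp upstream of the Fosb start and a value of 7.31, higher than the peak inside Fosb (5.91). The other, chr7:19332633-19333232, lay 22818 bp upstream with a value of 5.04. Their summits were 16790 and 11204 bp from an end of Ercc1. The remaining peak, chr5:32094387-32094922, lay 41936 bp upstream of Fosl2 with a value of 7.08, 9586 bp from an end of Babam2. The gene such a distal peak belongs to cannot be told from the list.

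Genes that work with the 10 were also examined, in 5 lists of 118 genes in all, and all of the lists had a higher share of occupied genes than the 26.4% of protein-coding genes. Expression in the intestine was not measured here, so occupied and unoccupied genes could not be matched for it, and the lists were chosen with earlier results of these data known. Other immediate early genes were occupied at 38 of 50 (76.0%), close to the 80.0% of the 10 genes. The highest values were at Cebpd (10.2), a C/EBP factor of the acute-phase response, and at Klf6 (8.60) and Klf4 (8.16), zinc-finger factors of which KLF4 acts in gut epithelial differentiation. Of these 50, 12 had 2 or more summits within 5 kb, beside 3.05% of all protein-coding genes and 11.5% of the occupied ones. Of the 3 other EGR genes in this list, singled out after their values were seen, Egr3 was occupied (5.64), and the nearest summits to Egr2 and Egr4 were 6646 and 26984 bp away.

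Among the other AP-1 subunits and related leucine zipper factors, 8 of 20 (40.0%) were occupied, beside 26.4% of all protein-coding genes. Atf1 (8.16) and Atf2 (7.61), of the CREB and ATF family, and Ddit3 (6.08), the stress factor CHOP, had the highest values. The remaining FOS gene, Fosl1 (FRA1), had its nearest summit 22452 bp away, and Batf, Batf2 and Batf3, AP-1 factors of lymphoid and myeloid cells, had theirs 63191 to 119067 bp away. These genes were singled out after their values were seen. Jdp2, which dimerizes with JUN, was occupied with a value of 4.83.

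On the route that leads to immediate early genes, 17 of 30 genes (56.7%) were occupied. Elk3 (7.998), an ETS partner of SRF, Srf itself (7.14, with the summit 2233 bp from an end), and Rps6ka4 (7.08), a kinase that phosphorylates CREB and histone H3, were highest. The partners and antagonists of MYC had 9 of 13 (69.2%), led by Mnt (7.38), Mlx (6.72) and Mxd1 (6.60), which form dimers in the MAX and MLX network. The summits with these values lay 3855, 3716 and 108 bp from an end. Max, the obligate partner of MYC, had a value of 5.10. Mga, Mlxip, Mlxipl and Mycn had none within 5 kb, and their nearest summits were 57458, 50283, 9630 and 673874 bp away. Of the enzymes that control turnover of JUN or MYC, 4 of 5 were occupied, among them Cops5 (6.56), also known as JAB1, and Itch (5.10). Fbxw7, the ubiquitin ligase subunit that recognises MYC and JUN, was the exception, with its nearest summit 555499 bp away.

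**Figure D4:**
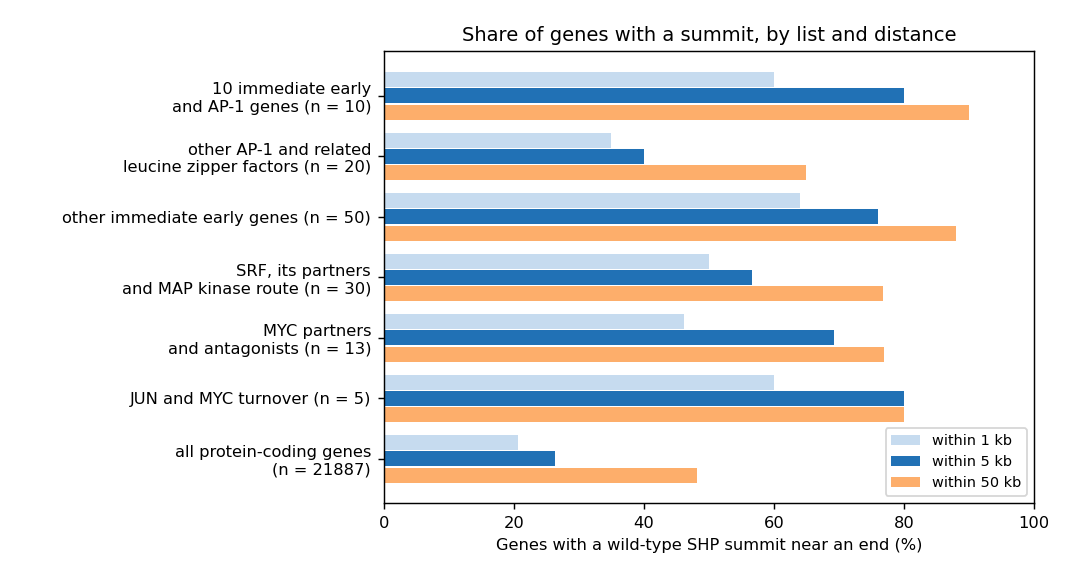
Share of genes, in percent, with a wild-type SHP summit within 1, 5 or 50 kb of an end, for the 10 genes, the 5 related lists and all 21887 protein-coding genes. Within 5 kb the shares run from 40.0% for the other AP-1 and leucine zipper factors to 80.0% for the 10 genes and the turnover list, beside 26.4% of all protein-coding genes.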

How the data were processed

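SHP ChIP-seq peaks of refed wild-type and SHP-knockout intestine were used, without the 2 inputs. Reads were handled with CASAVA 1.4 and BWA on mm10, per the submitters' processing notes. How peaks were called, and whether the 3 sets were pooled, is not given in the sources used here. Both lists follow the 10-column narrowPeak layout without header. The deposited signal (called the enrichment value), −log10 p, −log10 q and score are the authors' values per peak, and were used only within a list. By its name, the wild-type list passed an irreproducible discovery rate (IDR, agreement between replicate rankings) of 0.05, and the knockout list holds overlapping peaks. Read depth is unknown.

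Summits were start plus offset, 1-based. Distances ran to the nearest gene end in a RefSeq table of GRCm38.p6 (49943 genes). Starts and promoters came from a RefSeq table holding 7 of the 10 genes. Python 3.11.15 with pandas 2.3.3 was used. The distance calculation was tested on simulated data. The genes and lists were chosen with earlier results of these data known. Named by rule were the 10 genes, coding genes sharing their peaks, the 3 highest of each list, and unoccupied genes where 5 or fewer. Outside this rule, Jdp2, Max, Fosl1, the Batf genes, the other EGR genes and neighbouring genes in the 50 kb windows were also named. A gene of the turnover list is not reported here. Alternatives changed the distance, the peak threshold and the gene assignment. No test was made.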

Additional observations from a re-analysis of the deposited data

How the results depend on the processing

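The count of occupied members ran from 6 to 9 over the 8 alternatives for it, against 8 of 10. Within 1 kb, Fos and Fosb were lost, and with peaks from the median −log10 p upwards Fos and Myc were lost, leaving 6 each time. With a score of 830 or more, which corresponds to an IDR of about 0.01, Fos was lost and 7 remained, and within 50 kb Ier2 was added. The share of protein-coding genes at these settings was 20.7%, 14.8%, 12.7% and 48.2%. The median of the members' highest enrichment values ran from 5.91 to 6.65, against 6.11. The 6.65 came from the 50 kb setting, where peaks nearer to other genes gave the values of Fosb, Fosl2 and Ier2. Of the 118 related genes, 76 were occupied, and 49 at either peak threshold. The 26 peaks in the 50 kb windows became 16 within 20 kb and 14 at a score of 830 or more. The background of 26.4% was 20% for protein-coding genes of 10 kb or less and 15.1% for genes of every type. No knockout summit lay within 100 kb. No paired analysis was possible because each genotype had 1 peak list, and no replicate could be left out for the same reason. Without read depth, a missing peak cannot be told from a peak under the filter.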
